A study of Mus musculus with 6 samples.

Results

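The genes of the translation initiation factors were compared between macrophages given tumour-cell vesicles and macrophages given buffer. Every gene row whose symbol begins with Eif and a digit from 1 to 6 was taken. Pseudogene rows marked -ps were left out. No measured value entered this rule, but it was set with earlier results of these data known. The rule gave 53 of 26835 genes. The genes of the 4 kinases that phosphorylate eIF2 (Eif2ak1 to Eif2ak4) were kept apart from the other 49.

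The cells were wild-type macrophages grown from the bone marrow of BALB/C mice aged 5 to 8 weeks, over 6 days in medium with 10% heat-inactivated serum and the growth factor M-CSF at 25 ng/ml. They were then kept for 24 h with 10 µg of extracellular vesicles (small membrane-bound particles that cells release) from the mouse osteosarcoma line K7M2, or with PBS (phosphate-buffered saline), and both groups carry the label macrophage polarization. Each group held 3 RNA-seq libraries, which the submitters describe as independent experiments. Since no source ties the libraries to separate animals, p-values measure the spread between these libraries. PBS is a control for the carrier and not for vesicles of other cells.

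Translation in animal cells begins when the small ribosomal subunit, carrying eIF1, eIF1A, eIF3 and a complex of eIF2 with GTP and initiator tRNA, is brought to the capped end of an mRNA by eIF4F. The subunit scans to a start codon, eIF5 and eIF5B then let the large subunit join, and eIF2B recharges eIF2 with GTP. Phosphorylation of the eIF2 alpha subunit by 4 stress-sensing kinases blocks eIF2B, and the 4E-BP proteins block eIF4F by holding the cap-binding protein eIF4E unless mTORC1 phosphorylates them. Macrophages are known to set cytokine output partly through these controls.

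The values are FPKM, which scale the fragments of a gene to a length for that gene and to the size of the library. Low values mostly lay close to whole reads when the combined length of a gene's exons was used. That length can exceed the length of a transcript, by an amount that differs between genes. FPKM of different genes are therefore not directly comparable as transcript levels. The spacing of low values implied 21435200 to 25604500 reads per library. With PBS 12864 to 13173 genes reached 1 FPKM, and with K7M2 vesicles 11878 to 12216. All 8 macrophage markers were present, and their summed level was 4235 to 5121 FPKM with PBS and 12690 to 14167 FPKM with vesicles, most of it Lyz2. Of the 8 markers 6 rose, Mertk was not called, and Cd68 fell from 411 ± 35.3 to 202 ± 11.7 FPKM (log2 fold change -1.02, limma adjusted p = 0.000129). The summed level of 6 genes of dividing cells was 62.2, 98.2 and 82.7 FPKM in PBS libraries and 11.8, 22.0 and 13.0 FPKM in vesicle libraries, and all 6 fell. Replicate 2 stood apart in both groups by the summed level of 10 mesenchymal genes, the largest part of it the collagen Col1a1. This sum was 137, 321 and 149 FPKM in PBS libraries and 222, 594 and 216 FPKM in vesicle libraries. Not every gene of the list followed it: Postn was at 2.33, 2.09 and 2.11 FPKM in PBS libraries. The neutrophil list summed to 3.02 to 5.46 FPKM with PBS and 39.6 to 44.3 FPKM with vesicles, of which S100a8 made up most. Camp of this list also rose, from 0.200 ± 0.133 to 2.22 ± 1.01 FPKM, S100a9 was not called, and Ly6g was at 0 in 5 of 6 libraries. In bulk RNA fewer cells of a type and less RNA per cell cannot be told apart, and the part of these lists in the results below was not tested beyond the values without replicate 2.

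Of the 53 genes, 52 passed the filter of at least 1 FPKM in at least 3 libraries. With K7M2 vesicles 18 of them rose, 6 fell and 28 were not called (limma, Benjamini-Hochberg adjusted p under 0.05 over all 13009 genes tested). Among all genes tested 54.0% were called, 18.4% higher and 35.6% lower, whereas 46.2% of the initiation factor genes were called, 34.6% higher and 11.5% lower. Their median log2 fold change, on the log2(FPKM + 1) scale used throughout, was 0.11 against -0.12 for all genes, and 45 of 52 lay above the median of all genes. For 29 members no library of one group fell in the range of the other, 21 of them higher with vesicles, a share of 55.8% beside 63.8% of all genes (21.8% higher, 42.0% lower).

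The split between higher and lower members depended on the library scaling. Median-of-ratios scaling, which moved the median of all genes up by 0.15, gave 31 higher and 4 lower members beside 29.1% higher and 23.6% lower of all genes. Quantile normalization moved that median by 0.12 and gave 18 higher and 5 lower members, beside 24.1% and 25.2% of all genes. The replicate number as a block gave 20 higher and 6 lower members, beside 19.2% and 36.8% of all genes. Without replicate 2 of both groups 20 members were higher and 6 lower, beside 17.9% and 28.6% of all genes. Without replicate 1 of both groups 7 were higher and 6 lower (12.7% and 23.7% of all genes), and without replicate 3 of both groups 6 were higher and 4 lower (10.8% and 18.4%). PBS replicate 2 held the highest of the 3 PBS values for 33 of 52 members and PBS replicate 1 the lowest for 31. No member changed direction between calls under any of 18 alternatives. Under each alternative that tested them, 9 members were called: Eif2ak2, Eif2s1, Eif4ebp1, Eif4g2 and Eif6 rose, and Eif2ak4, Eif4b, Eif4ebp2 and Eif5a2 fell.

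**Figure D1:**
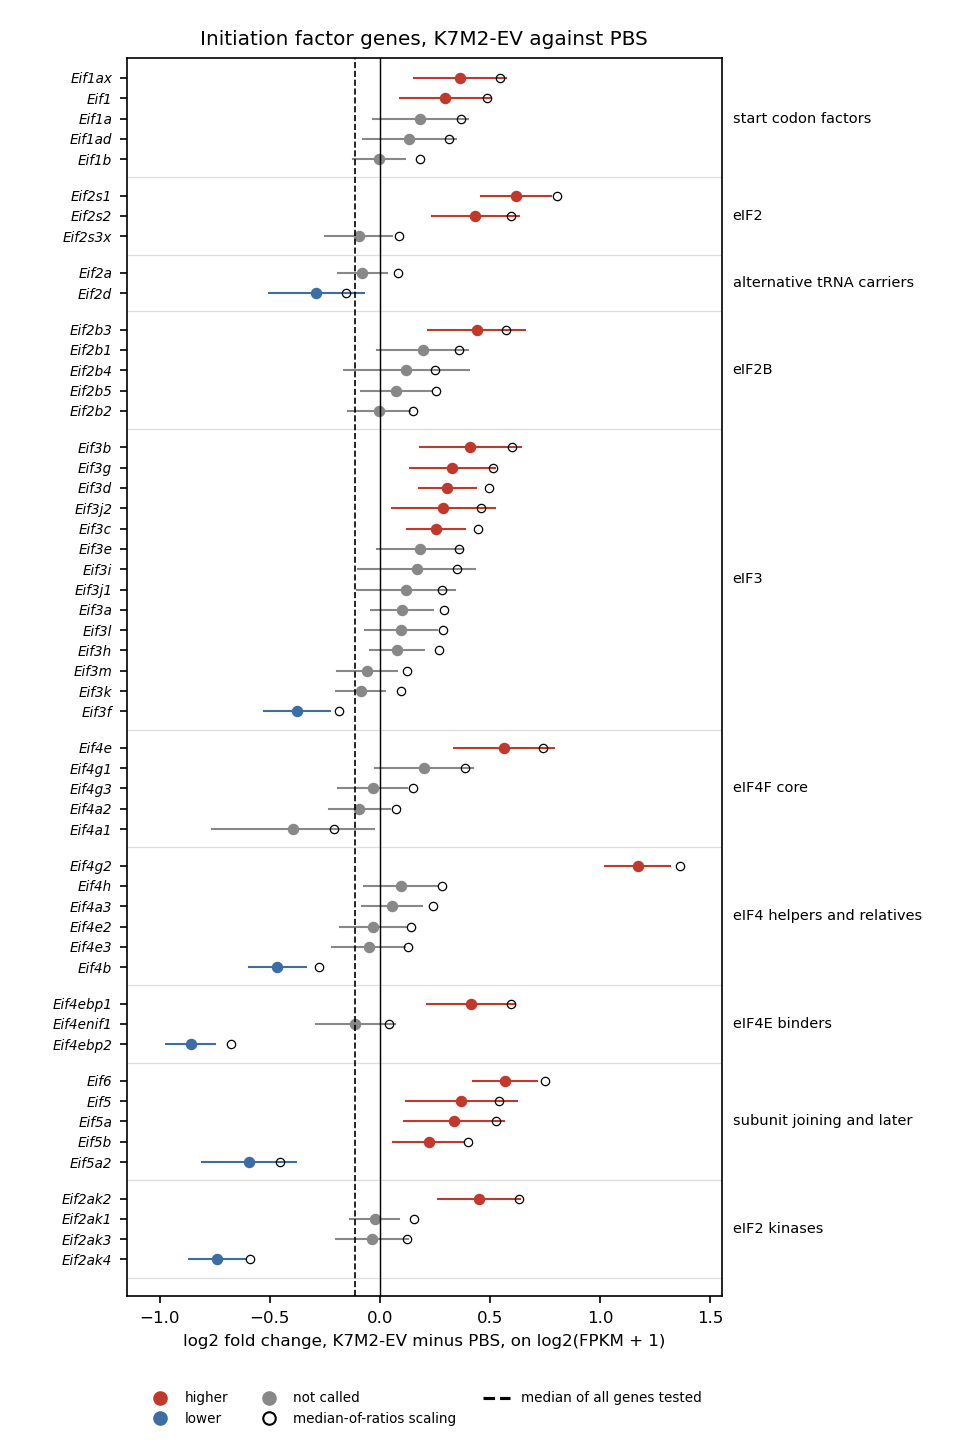
Log2 fold change of the 52 tested initiation factor genes, K7M2 vesicles minus PBS on log2(FPKM + 1), grouped by complex. Filled points with 95% intervals are coloured by call, open circles show median-of-ratios scaling, and the dashed line is the median of all genes. Values run from -0.86 for Eif4ebp2 to 1.17 for Eif4g2, and most points lie to the right of the dashed line.

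RefSeq windows on GRCm38.p6, from 250 bases before a transcription start to 50 after it, matched 42 members with 55 windows, and 3 motifs were searched on both strands, chosen after the values were seen. The first motif, GAAA followed after any 2 bases by GAAA, is the core of sites bound by interferon regulatory factors, and it was in 3.44% of all 32851 windows and in those of 4 members, Eif2ak2, Eif2s1, Eif2s3x and Eif3a. The first 2 of these rose and the other two were not called. CACGTG, the E-box bound by MYC with MAX and by related factors, was in 7.15% of all windows and in 12 of the 55 member windows (21.8%), which belong to 10 genes, some with more than 1 window. Of these 10 genes Eif4e and Eif5a rose, Eif3f and Eif5a2 fell, and Eif1b, Eif3a, Eif3k, Eif4a1, Eif4g1 and Eif4h were not called. TGATGNAA, an ATF4 site, was in 3.97% of all windows and in that of 1 member, Eif2s3x. A match is a description of letters and not of binding. The 4 sequences below belong to called members, with the motif in capitals, and read 5′ to 3′ on the gene's strand. The Eif2ak2 stretch (chr17:78882535-78882564, minus strand) lies just after the start, with the motif at position 19. The other 3 are the 250 bases before a RefSeq start. Eif2s1 (chr12:78861822-78862071, plus strand) has the GAAA pair at -212. Eif4e (chr3:138527018-138527267, plus strand) has CACGTG at -228 and -64, and Eif5a2 (chr3:28781027-28781276, plus strand) has it at -142 and -117. The Eif2s1 and Eif4e stretches lie inside the GENCODE gene spans given below, which begin at 78861819 and 138526179.
Eif2ak2: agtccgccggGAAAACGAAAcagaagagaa
Eif2s1: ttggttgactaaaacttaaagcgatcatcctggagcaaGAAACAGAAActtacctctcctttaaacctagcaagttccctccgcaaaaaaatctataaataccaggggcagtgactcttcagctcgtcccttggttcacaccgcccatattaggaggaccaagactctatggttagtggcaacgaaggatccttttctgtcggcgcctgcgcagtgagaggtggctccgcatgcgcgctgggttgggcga
Eif4e: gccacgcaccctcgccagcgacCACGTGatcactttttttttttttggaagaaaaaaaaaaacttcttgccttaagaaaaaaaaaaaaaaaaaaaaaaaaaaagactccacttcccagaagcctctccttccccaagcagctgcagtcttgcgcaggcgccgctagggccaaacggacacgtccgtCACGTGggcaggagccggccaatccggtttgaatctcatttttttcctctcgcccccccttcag
Eif5a2: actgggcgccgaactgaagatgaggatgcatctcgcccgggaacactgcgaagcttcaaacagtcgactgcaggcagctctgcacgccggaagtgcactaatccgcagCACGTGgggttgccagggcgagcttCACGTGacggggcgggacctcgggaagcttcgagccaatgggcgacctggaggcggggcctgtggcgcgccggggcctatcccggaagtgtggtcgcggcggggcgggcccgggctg
Eif2ak2 and Eif2s1 share the first motif and both rose, whereas Eif4e rose and Eif5a2 fell with the second motif present 2 times in each.

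Among the 5 start codon factors 2 rose and none fell, where 18.4% of all genes tested rose and 35.6% fell. These shares of all genes also stand beside the counts of each complex below. Eif1, which encodes the factor that keeps the scanning ribosome open until a start codon is found, rose 1.23-fold, from 41.7 ± 4.28 to 51.3 ± 2.34 FPKM (SD, n = 3 per group; log2 fold change 0.29, limma adjusted p = 0.0259). Eif1ax, the X-linked gene for its partner eIF1A, rose 1.31-fold from 10.6 ± 1.34 to 13.8 ± 0.255 FPKM (log2 fold change 0.36, adjusted p = 0.0124), a call lost without replicate 1 or replicate 3 of both groups (0.0589 and 0.124). The second eIF1A gene Eif1a had a log2 fold change of 0.18 and passed with the replicate number as a block (adjusted p = 0.0429 against 0.132 without it), with median-of-ratios scaling (0.00598) and without PBS replicate 2 (0.0168) or replicate 2 of both groups (0.0271). The eIF1 relative Eif1b had nearly equal means, 20.2 ± 0.576 and 20.1 ± 0.643 FPKM, with a 95% interval of the log2 fold change from -0.12 to 0.11, and Eif1ad had a log2 fold change of 0.13. The Eif1 call was lost without PBS replicate 1 or 3 or any 1 vesicle library (adjusted p 0.0521 to 0.0875), and after quantile normalization (0.0642).

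eIF2 has 3 subunits, of which the transcripts of 2 rose. Eif2s1 (chromosome 12 at 78861819 to 78887010, plus strand, GRCm38) encodes the alpha subunit that the stress kinases phosphorylate. Its level was 16.5, 19.2 and 18.0 FPKM in PBS replicates 1 to 3 and 28.7, 27.8 and 27.3 FPKM with vesicles. All 3 vesicle libraries lay above all PBS libraries, a 1.56-fold rise (log2 fold change 0.62, SE 0.066, limma adjusted p = 0.000396). Eif2s2, for the beta subunit, rose 1.43-fold from 4.46 ± 0.425 to 6.38 ± 0.529 FPKM (log2 fold change 0.43, adjusted p = 0.00483), and lost its call only without replicate 1 of both groups (0.0623). The gamma subunit gene Eif2s3x (chromosome X at 94188707 to 94212862, minus strand), for the subunit that binds GTP and the tRNA, was at 16.4, 18.5 and 16.7 FPKM in PBS libraries and 15.8, 16.8 and 15.5 FPKM in vesicle libraries. The ranges overlapped, and its log2 fold change of -0.10 (95% interval -0.25 to 0.06, adjusted p = 0.238) became 0.09 under median-of-ratios scaling. Although the 3 subunits assemble in equal numbers, the FPKM of Eif2s1 lay just above that of Eif2s3x in each PBS library and well above it in each vesicle library. This order reverses if Gm2223 belongs with Eif2s3x: that pseudogene, identical to it over 1350 bases, is listed at 47.0 to 57.4 FPKM across the 6 libraries, above both genes.

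Eif2a and Eif2d encode proteins that can bring initiator tRNA to ribosomes without eIF2. Eif2d went from 2.58 ± 0.305 to 1.92 ± 0.189 FPKM and fell by 0.29 on the log2 scale (limma adjusted p = 0.0328), but this call did not hold without PBS replicate 2 or 3 or vesicle replicate 1 or 3 (0.0879 to 0.104), without a filter (0.0570) or under either rescaling (0.157 with median-of-ratios, 0.398 with quantile normalization). Eif2a was not called, with 5.05 ± 0.104 and 4.72 ± 0.0252 FPKM, although its groups did not overlap.

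eIF2B, the 5-subunit exchange factor of eIF2, had 1 called gene. Eif2b3, a subunit of its catalytic part, rose 1.53-fold from 1.88 ± 0.328 to 2.88 ± 0.0469 FPKM (log2 fold change 0.44, limma adjusted p = 0.00732), except without replicate 1 or replicate 3 of both groups (0.0504 and 0.0855). The other four did not pass: Eif2b1 had a log2 fold change of 0.19 (called with either rescaling, and without PBS replicate 2, adjusted p = 0.0159, or replicate 2 of both groups, 0.0238), Eif2b4 of 0.12, Eif2b5 of 0.07 (0.25 and called with median-of-ratios scaling, 0.0114) and Eif2b2 of -0.0038. Eif2b5, which holds the exchange activity, was at 11.4 ± 0.971 and 12.1 ± 0.0542 FPKM.

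The 4 eIF2 kinases did not move together: 1 rose, 1 fell and 2 were not called. Eif2ak2 (chromosome 17 at 78852564 to 78882573, minus strand) encodes PKR, which senses double-stranded RNA and is an interferon-induced gene. It was at 11.4, 11.5 and 10.6 FPKM in PBS libraries and 15.0, 17.5 and 14.6 FPKM in vesicle libraries. Every vesicle library was above every PBS library, a 1.40-fold rise (log2 fold change 0.45, SE 0.077, limma adjusted p = 0.00313). Eif2ak4 (chromosome 2 at 118388618 to 118475234, plus strand) encodes GCN2, the sensor of uncharged tRNA and so of amino acid shortage. It was at 5.02, 4.82 and 5.13 FPKM in PBS libraries and 2.54, 2.57 and 2.66 FPKM in vesicle libraries. The groups lay far apart, a 1.93-fold fall (log2 fold change -0.74, SE 0.052, adjusted p = 6.87e-05), and the fall remained at -0.59 with median-of-ratios scaling. Eif2ak1, for the haem-regulated kinase HRI, was at 10.5, 9.87 and 9.94 FPKM in PBS libraries and 9.90, 9.86 and 10.0 FPKM in vesicle libraries. Its log2 fold change of -0.02 had a 95% interval from -0.13 to 0.09. Eif2ak3, for PERK, the kinase of the endoplasmic reticulum stress response, was at 4.57, 4.63 and 4.16 FPKM in PBS libraries and 4.53, 3.97 and 4.45 FPKM in vesicle libraries. Its log2 fold change of -0.04 had an interval from -0.20 to 0.13, and both Eif2ak1 and Eif2ak3 had positive, uncalled values under median-of-ratios scaling (0.15 and 0.12). Gene models on the other strand overlap Eif2ak1, Eif2ak2 and Eif2ak3, as they do 17 members in all, and counting used a strand setting not given in the sources used here.

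**Figure D2:**
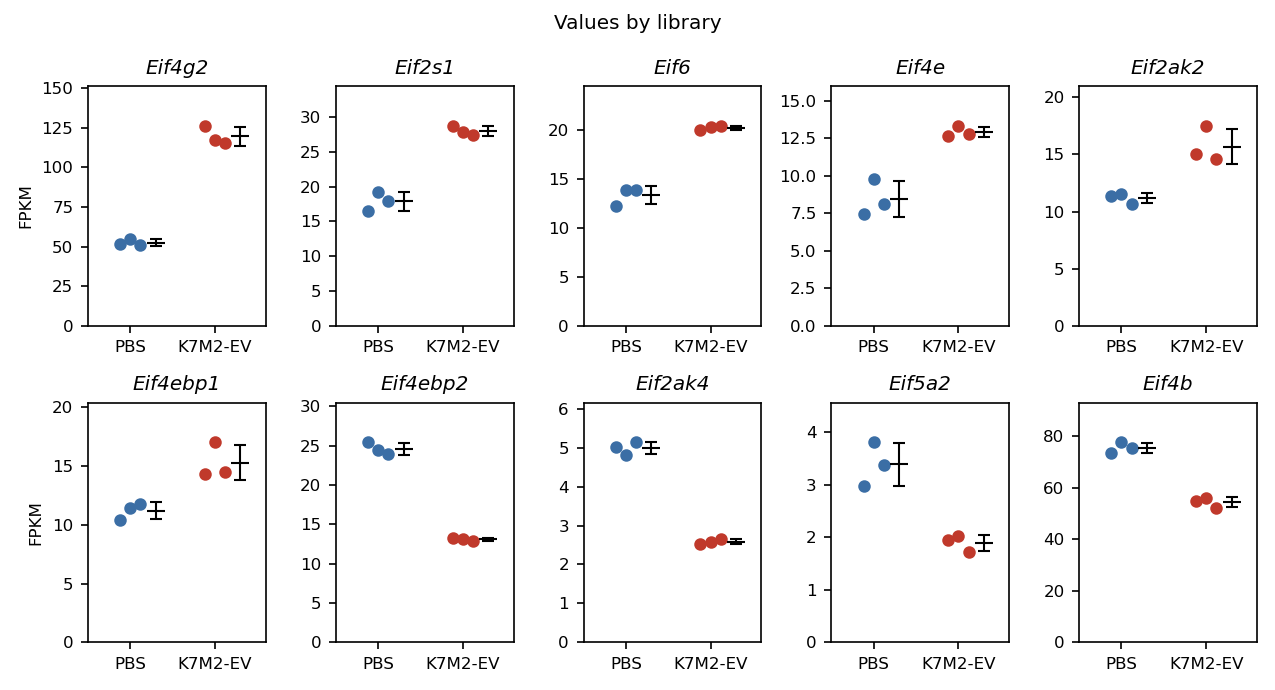
FPKM in each of the 3 PBS and 3 vesicle libraries for 10 members picked from those called, each panel with its own axis from 0. Points are libraries, and the bar beside them is the mean with the SD. The groups do not overlap in any panel of these called genes, as in 63.8% of all genes tested. Eif4g2 shows the widest gap, with 51.3 to 55.0 FPKM against 115 to 126 FPKM.

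eIF3, the scaffold that holds the small subunit and recruits mRNA, was measured by 14 genes, of which 5 rose, 1 fell and 8 were not called. Eif3b, a core subunit, rose 1.33-fold from 51.0 ± 6.47 to 67.7 ± 2.14 FPKM (limma adjusted p = 0.0112). Eif3d, the subunit with cap-binding activity of its own, rose 1.24-fold from 45.8 ± 1.88 to 56.9 ± 1.44 FPKM (adjusted p = 0.00365). Eif3c and Eif3g rose with log2 fold changes of 0.26 and 0.33. These 4 calls were lost only when 2 libraries of the same number were left out (without replicate 3 of both groups, adjusted p 0.0637 to 0.126; for all but Eif3d also without replicate 1, 0.0581 to 0.0740). Eif3j2 had a log2 fold change of 0.29 (adjusted p = 0.0450, and 0.0547 with the replicate block), lost its call without any 1 library other than PBS replicate 2 (0.0771 to 0.126) and without a filter (0.0821), and shares 99.4% identity over 2379 bases with Eif3j1 (0.12, not called), so reads of the 2 genes cannot be told apart with certainty.

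Eif3f was the 1 eIF3 gene called lower. It was at 38.7, 37.8 and 40.9 FPKM in PBS libraries and 29.6, 31.8 and 28.5 FPKM in vesicle libraries. The groups did not overlap, a 1.31-fold fall (log2 fold change -0.38, limma adjusted p = 0.00259). The value was -0.19 with median-of-ratios scaling (adjusted p = 0.0502), and without replicate 3 of both groups the call was also lost (0.0555). The remaining members Eif3a, Eif3e, Eif3h, Eif3i, Eif3k, Eif3l and Eif3m had log2 fold changes from -0.09 (Eif3k, whose groups did not overlap) to 0.18 and were not called. Of these Eif3e and Eif3i passed with the replicate block (adjusted p = 0.0303 and 0.0390), and Eif3e without PBS replicate 2 (0.0404), as did Eif3j1 (0.0253). Median-of-ratios scaling called 11 eIF3 genes higher and 0 lower. FPKM differed widely between subunits that enter the complex in equal numbers: Eif3a, the largest scaffold subunit, was at 75.9 ± 4.37 FPKM with PBS, and Eif3e at 12.0 ± 1.18 FPKM. The exons of Eif3e together span 6719 bases, and its longest coding transcript 1506. The part of gene length in this difference was not tested.

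eIF4F is made of the cap-binding protein eIF4E, the scaffold eIF4G and the helicase eIF4A, and of its 5 genes only Eif4e was called. Eif4e (chromosome 3 at 138526179 to 138559696, plus strand) was at 7.44, 9.80 and 8.16 FPKM in PBS libraries and 12.7, 13.3 and 12.8 FPKM in vesicle libraries. All vesicle libraries exceeded all PBS libraries, a 1.53-fold rise (log2 fold change 0.56, SE 0.094, limma adjusted p = 0.00274), lost only without replicate 3 of both groups (0.0517). Eif4g1 (chromosome 16 at 20668313 to 20692884, plus strand), the main scaffold gene, was at 27.3, 33.5 and 34.4 FPKM in PBS libraries and 36.1, 35.9 and 37.2 FPKM in vesicle libraries. The groups did not overlap, yet its log2 fold change of 0.20 was not called (adjusted p = 0.115) except with median-of-ratios scaling (0.0111). Its relative Eif4g3 had a log2 fold change of -0.03.

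The 2 helicase genes were not called. Eif4a1 (chromosome 11 at 69666936 to 69672423, minus strand) was at 26.9, 20.8 and 27.6 FPKM in PBS libraries and 21.2, 20.1 and 15.4 FPKM in vesicle libraries. The groups overlapped through PBS replicate 2, and the log2 fold change of -0.39 (95% interval -0.76 to -0.03, limma adjusted p = 0.0677) passed without PBS replicate 2 (-0.52, adjusted p = 0.0303) and without replicate 2 of both groups (-0.57, adjusted p = 0.0370). Eif4a2 (chromosome 16 at 23107444 to 23114136, plus strand) was at 6.67, 7.06 and 6.27 FPKM in PBS libraries and 6.39, 6.11 and 6.03 FPKM in vesicle libraries, which overlap, with a log2 fold change of -0.09 that was 0.07 under median-of-ratios scaling. The ratio of Eif4a1 to Eif4a2 went from 3.80 ± 0.753 to 3.05 ± 0.440, a log2 difference of -0.30 (exact two-sided permutation test, p = 0.3). With the FPKM of near-identical pseudogene copies added, described below, the ratio was 66.0 to 76.0 with PBS and 61.6 to 67.6 with vesicles. That was a log2 difference of -0.10 (exact p = 0.3). The size of this ratio is not that of pooled reads, since rows of unlike length were added.

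The 4E-BP genes, whose products compete with eIF4G for eIF4E, moved in opposite directions. Eif4ebp2 (chromosome 10 at 61428491 to 61452661, minus strand) was at 25.4, 24.4 and 24.0 FPKM in PBS libraries and 13.3, 13.1 and 12.9 FPKM in vesicle libraries. With little spread inside either group this was a 1.88-fold fall (log2 fold change -0.86, SE 0.046, limma adjusted p = 2.49e-05). Eif4ebp1 (chromosome 8 at 27260329 to 27276674, plus strand) was at 10.4, 11.4 and 11.8 FPKM in PBS libraries and 14.3, 17.0 and 14.5 FPKM in vesicle libraries. The groups did not overlap, a 1.36-fold rise (log2 fold change 0.41, SE 0.082, adjusted p = 0.00583). Eif4ebp3 was low, at 0.550, 2.27 and 0.419 FPKM in PBS libraries and 0.558, 0.848 and 1.79 FPKM in vesicle libraries, and was not tested, with as few as 8 implied reads in a library. Eif4enif1, for a transporter that binds eIF4E and takes it to the nucleus, had a log2 fold change of -0.11 and was not called.

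Ratios within a library do not depend on its scaling, though their size depends on the gene lengths used. The 3 summed 4E-BP genes exceeded Eif4e by 4.88, 3.88 and 4.43 times with PBS and by 2.22, 2.32 and 2.28 times with vesicles. The vesicle libraries were close to each other and all below the PBS libraries, a log2 difference of -0.95. The exact two-sided permutation test gave p = 0.1, the smallest that 3 against 3 allows, and 0.2 after adjustment over the 6 ratios tested. The ratio of Eif4ebp1 to Eif4ebp2, added after the values were seen and so given without a test, was 0.408, 0.468 and 0.492 with PBS and 1.08, 1.29 and 1.13 with vesicles. Eif4ebp2 thus had the higher FPKM of the pair in each PBS library and Eif4ebp1 in each vesicle library.

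**Figure D3:**
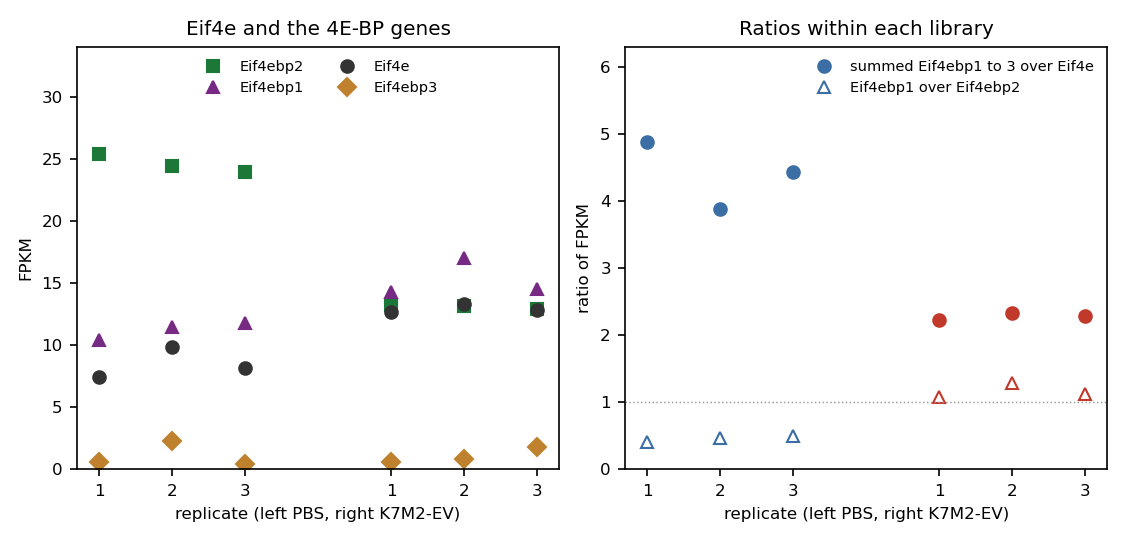
Left, FPKM of Eif4e and the 3 4E-BP genes in each library; right, the ratio of the summed 4E-BP genes to Eif4e (filled) and of Eif4ebp1 to Eif4ebp2 (open triangles), with a dotted line at a ratio of 1. Eif4ebp2 drops from 24.0 to 25.4 FPKM to 12.9 to 13.3 FPKM, and the open triangles cross the line.

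Among 6 helpers and relatives of eIF4F, 1 rose and 1 fell. Eif4g2 (chromosome 7 at 111067750 to 111083030, minus strand) encodes DAP5, an eIF4G relative that lacks the eIF4E-binding part and serves cap-independent and alternative initiation. It was at 51.4, 55.0 and 51.3 FPKM in PBS libraries and 126, 117 and 115 FPKM in vesicle libraries. The groups were far apart, a 2.27-fold rise and the largest change in size of any member (log2 fold change 1.17, SE 0.061, limma adjusted p = 2.20e-05). The ratio of Eif4g1 to Eif4g2 went from 0.604 ± 0.0697 to 0.305 ± 0.0187 and did not overlap between groups (log2 difference -0.98, exact two-sided permutation test, p = 0.1, adjusted 0.2). The ratio of Eif4g1 to Eif4g3 had a log2 difference of 0.24 (exact p = 0.2). Eif4b (chromosome 15 at 102073773 to 102097173, plus strand), which stimulates the eIF4A helicase, was at 73.4, 77.4 and 75.2 FPKM in PBS libraries and 54.7, 55.9 and 52.2 FPKM in vesicle libraries. That was a 1.39-fold fall with no overlap (log2 fold change -0.47, SE 0.053, adjusted p = 0.000554). Eif4h, the other stimulator, had a log2 fold change of 0.09, and Eif4a3, Eif4e2 and Eif4e3 lay between -0.05 and 0.05. None of these 4 was called, but Eif4h and Eif4a3 were called higher under median-of-ratios scaling.

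All 5 genes of subunit joining and later steps were called, 4 higher and 1 lower, where 54.0% of all genes tested were called. Eif6 (chromosome 2 at 155819832 to 155826925, minus strand), whose product keeps the large subunit from joining too early, was at 12.3, 13.9 and 13.9 FPKM in PBS libraries and 20.05, 20.3 and 20.4 FPKM in vesicle libraries. The groups did not overlap, a 1.51-fold rise (log2 fold change 0.57, SE 0.061, limma adjusted p = 0.000411). Eif5a (chromosome 11 at 69916714 to 69921958, minus strand), for the hypusine-carrying factor that helps elongation past difficult peptide bonds, was at 61.9, 77.2 and 65.0 FPKM in PBS libraries and 82.8, 83.3 and 91.3 FPKM in vesicle libraries. No library overlapped, a 1.26-fold rise (log2 fold change 0.34, adjusted p = 0.0238). Its paralogue Eif5a2 (chromosome 3 at 28781276 to 28798846, plus strand) was much lower, at 2.99, 3.80 and 3.37 FPKM in PBS libraries and 1.94, 2.03 and 1.73 FPKM in vesicle libraries. The groups did not overlap, a 1.78-fold fall (log2 fold change -0.59, SE 0.088, adjusted p = 0.00166). The pair thus moved apart, and Eif5a kept by far the higher FPKM.

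Eif5, which triggers GTP hydrolysis by eIF2 at the start codon, rose 1.33-fold from 6.11 ± 1.02 to 8.13 ± 0.337 FPKM (limma adjusted p = 0.0237). Eif5b, for the GTPase that joins the subunits, rose 1.18-fold from 10.3 ± 0.709 to 12.1 ± 0.641 FPKM (adjusted p = 0.0304). The calls of Eif5, Eif5a and Eif5b depended on single libraries, whereas those of Eif6 and Eif5a2 did not. Eif5 and Eif5a lost theirs without PBS replicate 1 or 3 or vesicle replicate 1 or 3 (adjusted p 0.0591 to 0.0758 and 0.0506 to 0.0823). Eif5b lost its call without PBS replicate 2 or 3 or vesicle replicate 1 or 2 (0.0524 to 0.0908) or without a filter (0.0550). The ratio of Eif5a to Eif6 had a log2 difference of -0.26 (exact two-sided permutation test, p = 0.1, adjusted 0.2), and that of Eif1 to Eif5 of -0.12 (exact p = 0.3; -0.19 with pseudogene copies added, exact p = 0.2).

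Several members share most of their coding sequence with processed pseudogenes, copies made from a reverse-transcribed mRNA, and the tables list some of these copies at levels above the parent gene. By alignment of GENCODE M21 transcripts, 14 members had another transcript at 95% identity or more over at least 200 bases, and for 5 of them (Eif1, Eif2s2, Eif2s3x, Eif3j1 and Eif4a1) the copies together exceeded the member. Eif4a1 stood at 25.1 ± 3.71 and 18.9 ± 3.12 FPKM, beside 439 ± 22.6 and 381 ± 10.4 FPKM for its copy Eif4a-ps4, which is 99.9% identical over 1218 bases. That copy was called lower (log2 fold change -0.20, limma adjusted p = 0.0290, but -0.0075 with median-of-ratios scaling). The level of Eif4a1 given above is therefore uncertain, and with copies added it was called lower (-0.21, adjusted p = 0.0182). Copies were added as FPKM and not as reads, here and in the ratios. A copy shorter than its member thus weighs more in the sum than its reads would. The exons of Eif4a1 together span 4334 bases.

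Eif2s3x and Eif2s2 also had copies listed above them. Eif2s3x had 100% identity over 1350 bases with Gm2223, listed at 51.7 ± 5.27 and 53.4 ± 0.892 FPKM, which like the member was not called. Under median-of-ratios scaling Gm2223 was called higher (log2 fold change 0.24, limma adjusted p = 0.0271), and Eif2s3x was not (adjusted p = 0.213). Gm9892, the 99.5% identical copy of Eif2s2, rose from 23.3 ± 2.53 to 32.2 ± 0.792 FPKM (log2 fold change 0.45, limma adjusted p = 0.00377), close to the 0.43 of the member. Gm7327, the copy of Eif4e, rose from 8.42 ± 0.877 to 12.0 ± 1.49 FPKM (0.46, adjusted p = 0.0110). With its FPKM added the 4E-BP to eIF4E ratio was 1.99 to 2.41 with PBS and 1.11 to 1.31 with vesicles. The match of Gm7327 spans 654 bases and the exons of Eif4e 6008, so the added FPKM may stand for few reads. How far pooled reads would lower the ratio was not tested. With copies summed into 10 members 18 members were higher and 7 lower, and each of the 24 calls remained. No copy was found for 39 members, Eif4g2, Eif4ebp1, Eif4ebp2, Eif4b, Eif5a2, Eif6 and the 4 kinases among them.

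**Figure D4:**
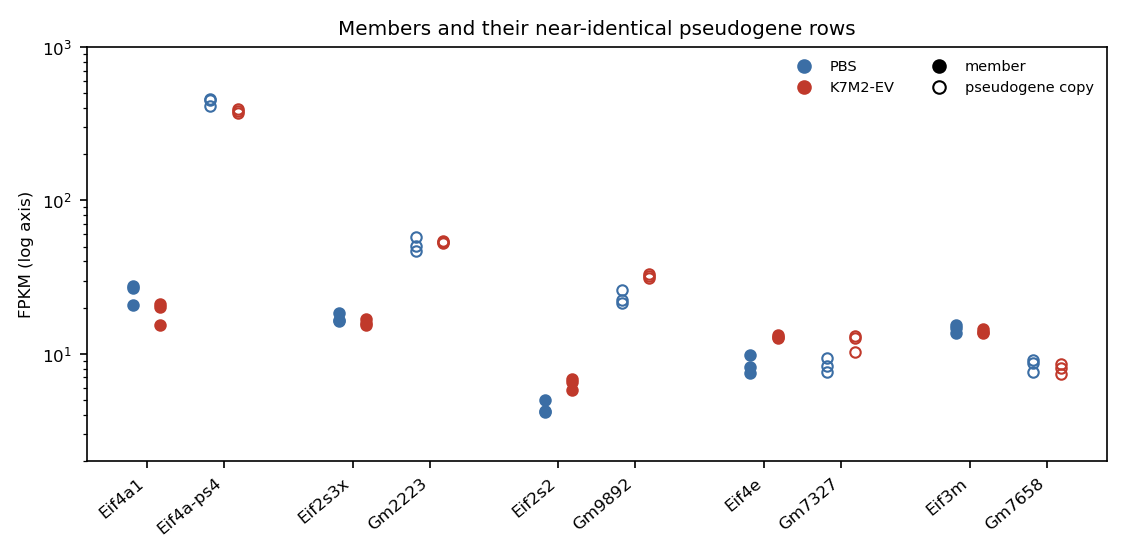
FPKM on a log axis of 5 members (filled) and of the near-identical pseudogene row of each (open), 1 point per library, PBS in blue and vesicles in red. The copy lies above the member for Eif4a1, Eif2s3x and Eif2s2, level with it for Eif4e, and below it for Eif3m.

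Other genes of the pathway were taken as 8 lists, of which 78 genes had rows and 76 were tested. Of these 21 rose and 16 fell, where 54.0% of all genes tested were called, 18.4% higher and 35.6% lower. The same shares stand beside the counts of each list below. In the list of partners and regulators of initiation 6 of 19 rose and 5 fell (8 with the replicate block). Pdcd4, whose product blocks the eIF4A helicase, fell 5.68-fold from 18.2, 13.4 and 13.4 FPKM with PBS to 2.39, 3.48 and 2.05 FPKM with vesicles (log2 fold change -2.14, limma adjusted p = 0.000137). Cyfip1, for a protein that holds eIF4E in a repressor complex, rose 1.90-fold from 23.6 ± 0.757 to 45.0 ± 2.49 FPKM (0.90, adjusted p = 5.50e-05). Pabpc1, the poly(A)-binding protein that bridges to eIF4G, rose with a log2 fold change of 0.27 (adjusted p = 0.0150), a call lost without PBS replicate 3 or vesicle replicate 3 (0.0575 and 0.0581).

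Among partners of the eIF2 kinases and the eIF2 phosphatase 3 of 10 rose (4 with the replicate block) and 2 fell. Dnajc3, for an inhibitor of PKR and PERK, rose 1.58-fold from 22.7 ± 1.18 to 35.7 ± 1.01 FPKM (log2 fold change 0.63, limma adjusted p = 0.000196). Impact, whose product restrains GCN2 activation, fell 1.44-fold from 26.9 ± 0.843 to 18.7 ± 1.02 FPKM (-0.50, adjusted p = 0.000548). Ppp1r15a, the inducible phosphatase subunit GADD34, was not called (-0.29, adjusted p = 0.236).

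The ATF4 axis, genes of the transcription factor whose mRNA is translated better when eIF2 is phosphorylated and of its targets, had 8 of 15 higher and 1 lower, with a median log2 fold change of 0.57. The replicate block gave 9 higher and 2 lower. Slc7a11, the cystine transporter, rose 3.94-fold from 3.36 ± 0.696 to 13.2 ± 2.68 FPKM (log2 fold change 1.71, limma adjusted p = 0.000284). Atf3 fell 3.06-fold from 171 ± 26.3 to 56.1 ± 5.03 FPKM (-1.59, adjusted p = 9.92e-05). Atf4 itself rose from 61.8 ± 5.15 to 75.5 ± 3.24 FPKM (0.29, adjusted p = 0.0183), a call lost without PBS replicate 3 or vesicle replicate 1 or 2 (0.0519 to 0.0605). Ddit3, for CHOP, was not called, with -0.16 (adjusted p = 0.124), except without PBS replicate 3 (-0.23, adjusted p = 0.0442).

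The mTORC1 and MNK list holds kinases of the signalling around the 4E-BPs and eIF4E, with their partners and inhibitors. Of its 12 genes 1 rose and 5 fell, but 5 were higher and 3 lower after median-of-ratios scaling. Mtor rose from 9.89 ± 0.195 to 11.7 ± 0.637 FPKM (log2 fold change 0.22, limma adjusted p = 0.0127), except without replicate 1 or replicate 3 of both groups (0.103 and 0.108). Deptor, an inhibitor of mTOR, fell 6.65-fold from 2.50 ± 0.296 to 0.376 ± 0.109 FPKM (-1.35, adjusted p = 6.74e-05). The elongation list took 8 genes by their Eef symbols, and not all of them encode elongation factors. Of these Eef1e1 rose (0.59, adjusted p = 0.00285), and Eef2k, the kinase that inhibits eEF2, fell (-0.72, adjusted p = 0.00213). The replicate block called 2 higher. Eef2 was not called (-0.08, adjusted p = 0.240). Termination and recycling had 1 of 4 higher, the release factor gene Gspt1 (0.44, adjusted p = 0.00313), and 4 of 4 with median-of-ratios scaling, and the 2 mitochondrial initiation genes were not called. Without replicate 3 of both groups Eef1e1 and Gspt1 lost their calls (0.0555 and 0.0592). In the MYC network 1 of 6 rose, Mlx (0.42, adjusted p = 0.0272, lost without PBS replicate 1 or 2 or vesicle replicate 2 or 3, 0.0586 to 0.0832, and without a filter, 0.0540), and 2 fell, with Mxi1, a MYC antagonist, at -1.35 (adjusted p = 0.000110).

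**Figure D5:**
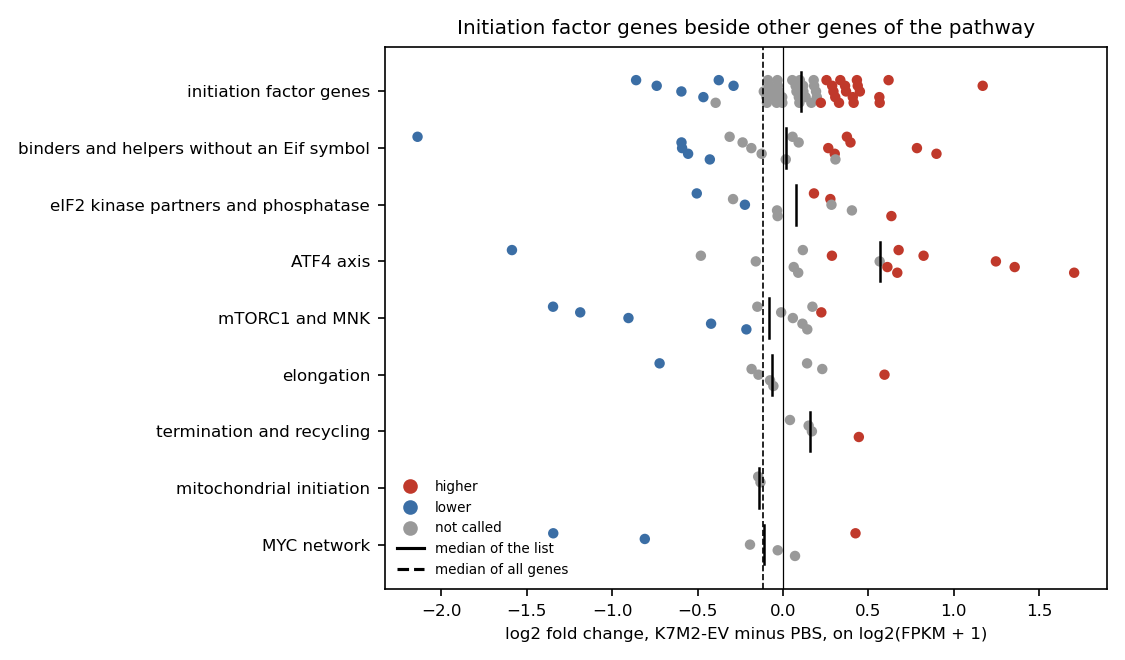
Log2 fold change, K7M2 vesicles minus PBS on log2(FPKM + 1), of each tested gene in the initiation factor set and in 8 other lists of the pathway, coloured by call. Short vertical bars are list medians and the dashed line is the median of all genes at -0.12. The ATF4 axis has the highest median, 0.57, and the initiation factor genes span a narrower range than the lists of partners and of the ATF4 axis.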

How the data were processed

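RNA from 3 PBS and 3 K7M2 vesicle libraries was analysed, grouped by sample title. The authors deposited 1 table of FPKM values per library, with gene symbols and no counts. Libraries were made with a NEBNext Ultra kit, per the labels' protocols. The tools listed, per the submitters' processing notes, are HISAT2 2.1.0, CASAVA 1.8, edgeR and StringTie 1.3.4b, with the build GRCm38. Their roles and the strand setting were not given in the sources used here. A row without a value (1) and 47 repeated symbols were dropped. Depth was read from steps in the low FPKM values with GENCODE M21 exon lengths: of values equal to 20 reads or fewer, 72.4% to 73.3% lay within 0.1 of a whole read, too few for a count test. The lowest library held 8 implied reads for Eif4ebp3, 209 for Eif5a2 and 423 for Eif2ak4.

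Genes were tested with limma 3.58.1 (trend and robust, statmod 1.5.0, R 4.3.3) on log2(FPKM + 1), which understates the change of low genes, with a filter of at least 1 FPKM in at least 3 libraries and a Benjamini-Hochberg threshold of 0.05. The code was tested on simulated data. Python 3.11.15, numpy 2.4.6, pandas 2.3.3 and matplotlib 3.10.9 made tables and plots, and BLAST 2.17.0 found near-identical transcripts. Ratios were taken on the FPKM with an exact permutation test, and 1 planned ratio was not analysed here. Library values are given for called members whose log2 fold change was 0.5 or more in size, the 4 kinases and a list of central members, and for Eif3f and Eif4b, added after their values were seen. Of other lists the largest called rise and fall are named, with Atf4, Ddit3, Ppp1r15a, Pdcd4, Pabpc1, Eef2 and Mtor. The members and lists were chosen with earlier results of these data known. Same-numbered libraries deviated together (r = 0.317, 0.294 and 0.209 across genes), a sign of pairing that rests on these data alone. Calls come from the fit without the replicate number. Values with it as a block are given where they change a member's call, and counts where they change those of another list.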

Additional observations from a re-analysis of the deposited data

How the results depend on the processing

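Alternatives were another pseudocount, 2 other filters, 2 rescalings, a non-robust fit, the replicate block and left-out libraries, with pseudogene copies summed and the block with median-of-ratios scaling added after the data were seen. The 18 higher members became 31 with median-of-ratios scaling and 32 with the block as well, and 6 to 21 when libraries were left out (7 without replicate 1 of both groups). The 6 lower became 3 at a mean of at least 5 FPKM, where low genes were not tested, and 4 to 6 with libraries left out. In the other lists 21 higher genes became 34 with median-of-ratios scaling, 39 with the block as well and 9 to 22 with libraries left out (12 without replicate 1 of both groups), and 16 lower genes became 9 at a mean of at least 5 FPKM and 11 to 16 with libraries left out. The replicate block gave 20 higher and 6 lower members, 23 of its 26 calls shared with the fit without it. Among members it changed no call but those of Eif1a, Eif3e, Eif3i and Eif3j2. The cause of these shifts was not tested. With libraries left out the log2 ratio differences ran from -1.03 to -0.87 for 4E-BP over Eif4e, -1.07 to -0.90 for Eif4g1 over Eif4g2, -0.48 to -0.18 for Eif4a1 over Eif4a2, 0.11 to 0.31 for Eif4g1 over Eif4g3, -0.19 to -0.06 for Eif1 over Eif5 and -0.32 to -0.20 for Eif5a over Eif6. Depth limited Eif4ebp3, with as few as 8 implied reads.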
